A study of Rattus norvegicus with 6 samples.

Results

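Chemokines are small secreted or membrane-tethered proteins that guide the movement of leukocytes, and their receptors are G protein-coupled receptors on the cells that respond. The 48 genes described here were the symbols of a rat trigeminal ganglion count table that name a numbered chemokine of the Ccl, Cxcl, Cx3cl or Xcl families, a receptor of the Ccr, Cxcr, Cx3cr or Xcr families, an atypical receptor of the Ackr family, or Ccrl2, with at least 10 counts summed over the 6 libraries. They were 48 of 57 matching symbols and of 29884 genes in the table. Of them 29 encode ligands and 19 encode receptors. The other 9 symbols (Ccl17, Ccl20, Ccl25, Ccl26, Ccl28, Ccr4, Ccr8, Ccr9 and Cxcr1) had between 0 and 9 counts in all and were left out.

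The trigeminal ganglion holds facial sensory neurons together with satellite glia, Schwann cells, blood vessels and resident macrophages. All 6 samples were trigeminal ganglia of wild type rats in which the infraorbital nerve had been constricted (CCI-ION), a model of trigeminal neuralgia. The 3 conduit ganglia were from rats also given the light-driven gel in a nerve conduit, labelled SFM-Gel @NGC-Light, and the 3 injury ganglia were from rats with the constriction alone. No group separates gel, conduit and light. Uninjured ganglia were not analysed here, so no level can be set against the state before injury, and no source used here gives strain or age. The comparison asked which transcripts differed in the ganglion when the constriction was treated. In injured sensory ganglia chemokines are known for attracting monocytes and macrophages and for acting on receptors of the neurons themselves.

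The libraries held 40172473 to 41903629 counts. By label, days 17, 18 and 19 belong to the conduit samples and days 14, 15 and 16 to the injury samples, so day and treatment cannot be told apart; whether these are true sampling days is not stated. Both groups meet only in batch 2, which holds conduit sample 1 with injury sample 3; the remaining conduit samples form batch 3 and the remaining injury samples batch 1. Some libraries, and the groups, stood apart in genes of other tissues. Summed skeletal muscle genes reached 7571 CPM, counts scaled by library size, in conduit sample 2 and 442 in injury sample 1, against 7.14 to 15.3 in the other 4. Summed erythroid genes were at 511 to 1273 CPM in the conduit ganglia and 4445 to 5301 in the injury ganglia, and summed neutrophil genes at 12.9 to 35.5 CPM in the conduit ganglia and 59.6 to 700.4 CPM in the injury ganglia. Genes of dividing cells summed to 12.7 to 20.1 CPM in the conduit ganglia and 15.3 to 93.2 CPM in the injury ganglia. Bone genes summed to 641 to 851 and 737 to 1045 CPM, and B cell genes to 3.34 to 7.05 and 3.18 to 31.6 CPM. These 3 sums overlapped. Means were lower in the conduit ganglia for 7 of 7, 6 of 7 and 7 of 7 of these genes, as for 9827 of 19517 genes with at least 10 counts. In whole ganglia, fewer cells of a type and less RNA per cell cannot be told apart.

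The ganglion expressed a small set of these genes at a high level. Levels of different genes were compared as FPKM, in which fragment counts are scaled by gene length and by library size. Ackr1, an atypical receptor of venular endothelium that binds many chemokines without signalling, was the most abundant at 42.2 ± 7.16 FPKM in the conduit ganglia and 31.8 ± 0.208 FPKM in the injury ganglia (mean ± SD, n = 3 each). Cxcl10, an interferon-inducible ligand, averaged 19.5 ± 14.6 FPKM in the conduit ganglia and 4.92 ± 2.87 FPKM in the injury ganglia, with conduit sample 1 alone at 35.9 FPKM. Cxcr4, the receptor of Cxcl12, averaged 9.72 ± 1.95 FPKM in the conduit ganglia and 12.2 ± 1.77 FPKM in the injury ganglia. Ccl2, the main attractant of monocytes, averaged 10.6 ± 1.98 FPKM in the conduit ganglia and 10.7 ± 0.628 FPKM in the injury ganglia. Cxcl12 and Cxcl16 followed with mean FPKM over the 6 libraries of 8.80 and 8.51. Cxcl10, Cxcr4, Ccl2, Cxcl12 and Cxcl16 overlapped in FPKM across libraries, and their order is not separated by their spread. Cxcl10 ran from 2.06 to 35.9 FPKM. In the injury ganglia its mean was below those of Cxcr4, Ccl2, Cxcl12 and Cxcl16, the last 2 at 9.16 and 7.46 FPKM. At the low end, Ccl22, Ccr3, Ccr6 and Xcr1 had mean FPKM of 0.0281, 0.0217, 0.0116 and 0.00948.

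**Figure D1:**
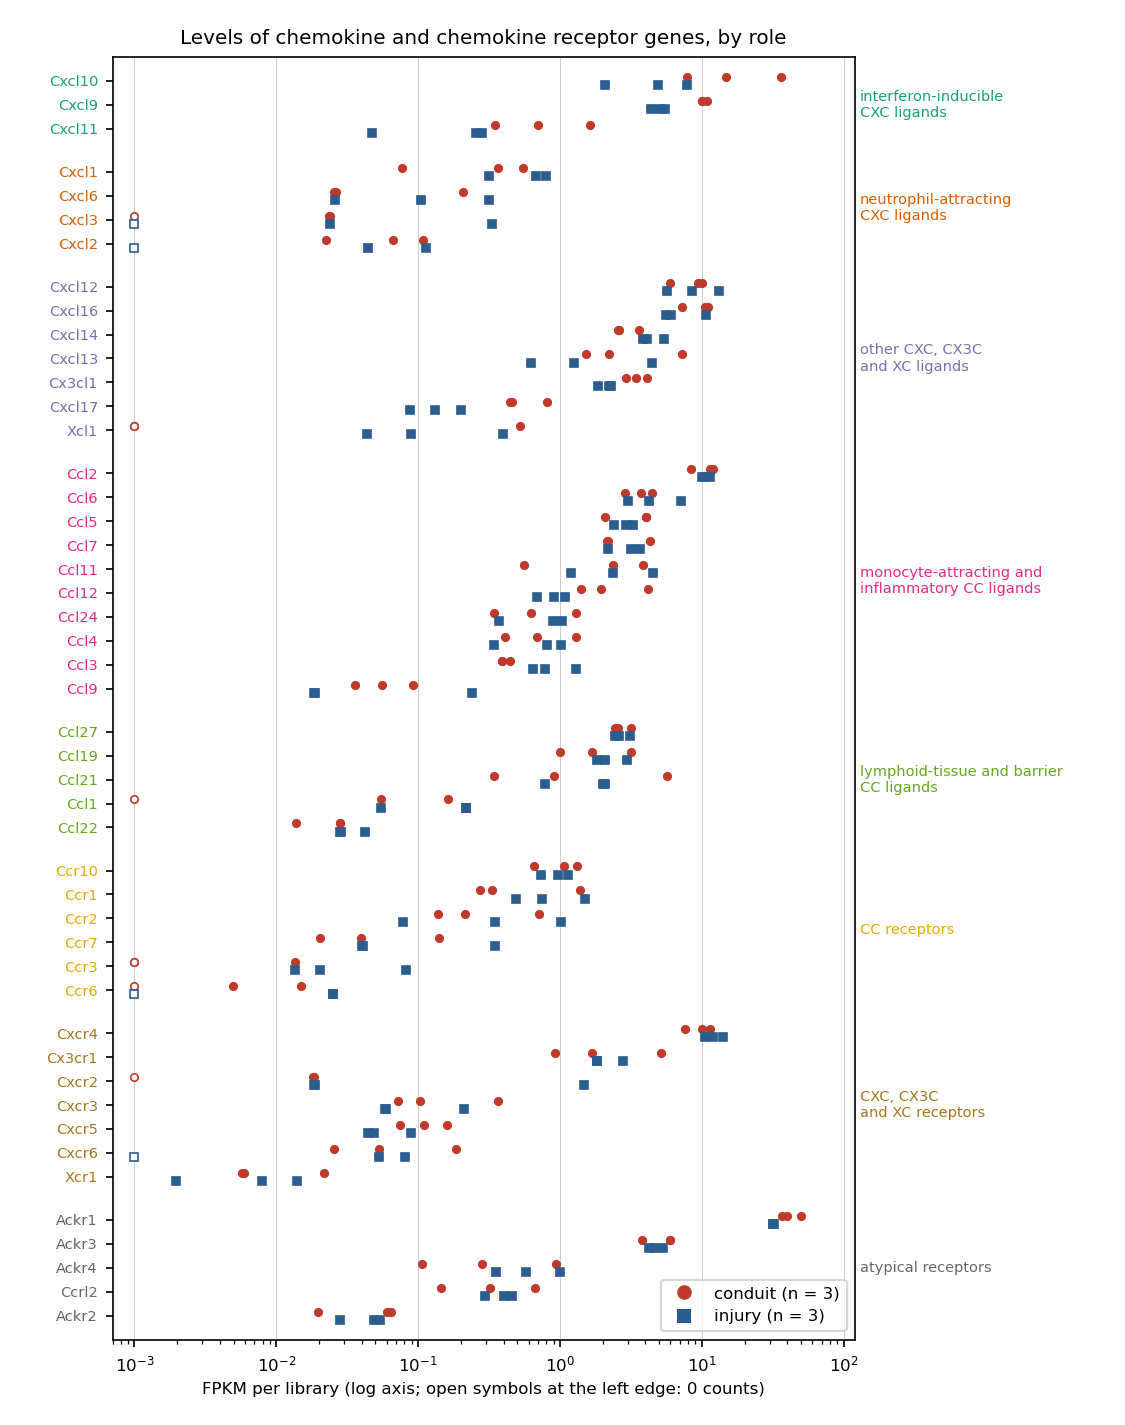
Level of chemokine and chemokine receptor genes in each library, in FPKM on a log axis, with genes grouped by role and ordered by mean level. Circles are the 3 conduit libraries and squares the 3 injury libraries, and open symbols mark libraries with 0 counts. Ackr1 lies to the right of every other gene apart from Cxcl10 in conduit sample 1, and most CC and CXC receptors lie below 1 FPKM.

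Between the groups, the 3 interferon-inducible ligands Cxcl9, Cxcl10 and Cxcl11, the neuronal ligand Cx3cl1, Cxcl17, Ccl12 and Ackr1 were higher in all 3 conduit libraries than in any injury library. Cxcl14 and Ccl3 were lower in all 3. Summed markers of Schwann cells did not overlap either, at 50555, 43181 and 49524 CPM in the conduit ganglia and 37150, 30135 and 37489 CPM in the injury ganglia, with 4 of 7 higher at an unadjusted edgeR p under 0.05, 0 called by edgeR and 4 by DESeq2. Of the 9 erythroid genes, all lower, edgeR called 0 and DESeq2 8. Of the 11 neutrophil genes edgeR called 0 and DESeq2 4, where DESeq2 called 1.23% of all genes. The part of these cell types in the levels of the chemokine genes was not tested. None of the 48 genes passed edgeR's quasi-likelihood test at an adjusted p under 0.05, where 1 of 16478 tested genes did (0.00607%). Of the 48, 34 passed the filter on low counts and were tested. At an unadjusted edgeR p under 0.05 stood 7 genes higher in the conduit ganglia, against 2.99% of all tested genes, and 2 lower, against 2.36%. The 9 together are set against 5.35% of all tested genes. The other 25 tested genes had edgeR adjusted p-values of 0.9998 each and log2 fold changes between -0.80 and 0.96. The filter lets a gene pass through 1 group alone, as Ccl4, Cxcl11, Cxcl17 and Cxcr5 did through the conduit group and Ackr4 and Cxcl1 through the injury group. With no filter, 7 of the 48 were higher at an unadjusted edgeR p under 0.05, against 2.29% of 23618 genes with any count. With Cxcr2 in the place of Ccl3, 2 were lower, against 2.43%. The median log2 fold change of all 48 was then 0.03, against 0.00153 for the 23618. The 48 all had at least 10 counts, as had 19517 genes, so the 23618 include scarcer genes and are not a like set.

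Groups without overlap were counted over all 48 genes too. The libraries did not overlap for 10 of them, against 9.80% of the 19517 genes with at least 10 counts. Of the 10, 7 were higher in the conduit ganglia, against 5.37% of those genes, and 3 were lower, against 4.43%. The third lower gene was Ccr3, the eotaxin receptor, with 2, 0 and 0 counts in the conduit libraries and 2, 12 and 3 in the injury libraries. Conduit sample 1 and injury sample 1 were thus kept apart in CPM only by the TMM scaling of library size. In FPKM the groups overlapped, and the gene was too low for a test. DESeq2, run as another tool, gave 36 of the 48 an adjusted p and called 2 of them (Cxcl9 and Cx3cl1). It called 210 of the 17126 genes with an adjusted p (1.23%). The smallest p that an exact permutation test of 1 gene could reach here is 0.1. Whether the samples came from separate animals is not stated. The p-values set the difference between the groups against the spread between these samples only. That difference cannot be told apart from day, and both groups meet only in batch 2.

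**Figure D2:**
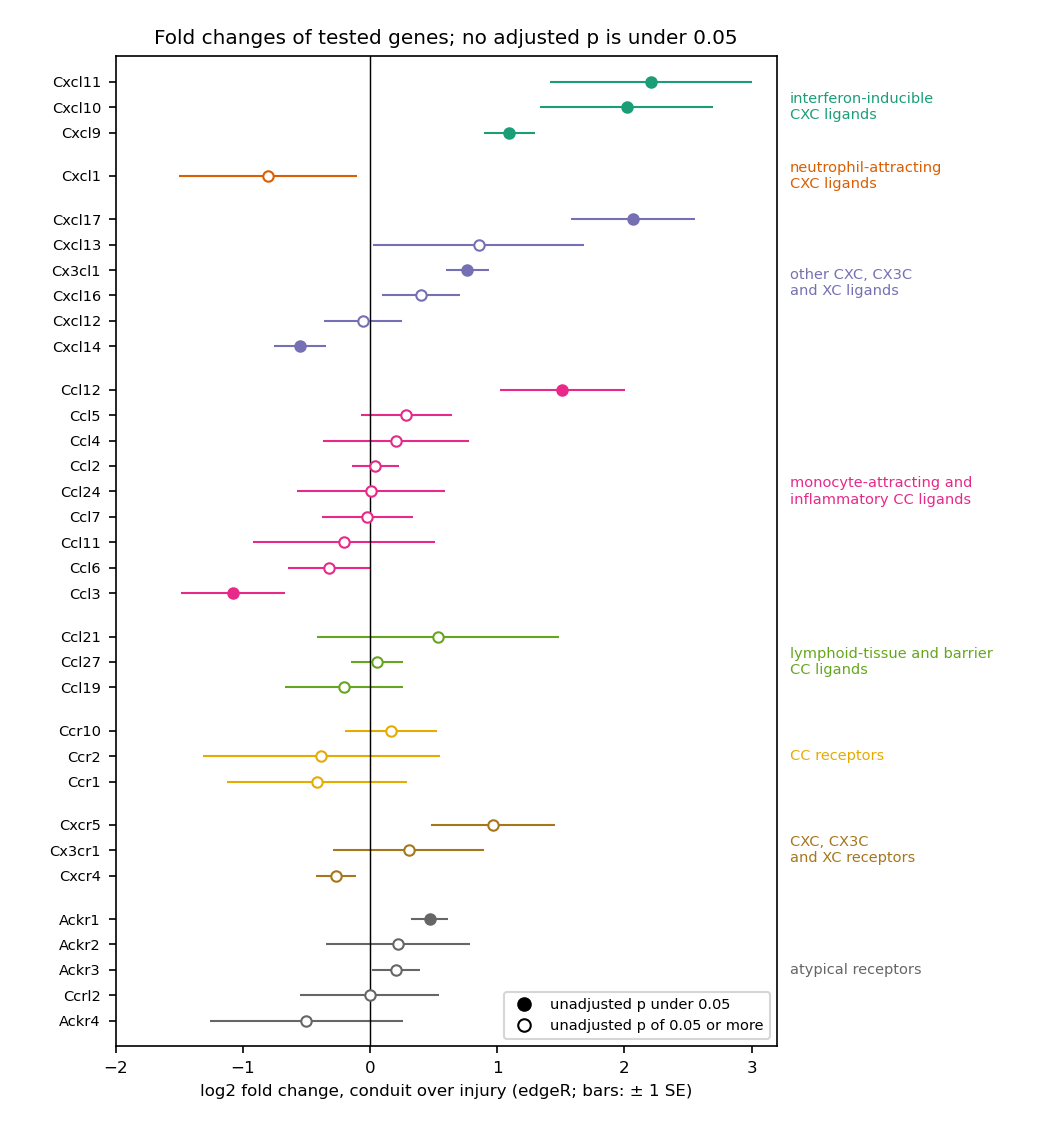
Log2 fold change of tested genes, conduit over injury, with bars of 1 SE from edgeR's fit, grouped by role. Filled points mark an unadjusted p under 0.05: 7 lie to the right of 0, led by Cxcl11 at 2.21, and 2 to the left, Cxcl14 at -0.55 and Ccl3 at -1.08. Cxcl11 and Cxcl17 passed the filter on low counts through the conduit group alone.

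Cxcl9, Cxcl10 and Cxcl11 are ligands of Cxcr3, a receptor of activated T and natural killer cells, and are induced by interferons. Cxcl9 stood at 5.89, 5.68 and 5.83 CPM in the conduit ganglia, against 3.08, 2.29 and 2.75 CPM in the injury ganglia. The groups did not overlap, and the 3 conduit libraries were close to each other. Cxcl9 averaged 5.80 ± 0.109 CPM in the conduit ganglia and 2.71 ± 0.396 CPM in the injury ganglia (SD, n = 3 each; log2 fold change 1.10, SE 0.20, edgeR unadjusted p = 0.000937, adjusted p = 0.368), and the log2 difference within batch 2 was 1.09. A difference within batch 2 sets conduit sample 1 against injury sample 3, 1 library each. Its median was 0.59 over the 48 genes, against 0.0019 over the 19517 genes with at least 10 counts. DESeq2 gave Cxcl9 an adjusted p of 0.000196, the smallest of its adjusted p-values over the settings tried, which reached 0.9999. Its log2 fold change lay at 0.99 to 1.21 when 1 library was left out.

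Cxcl10 was at 40.1, 9.07 and 17.7 CPM in the conduit ganglia, against 5.64, 2.22 and 8.65 CPM in the injury ganglia. Conduit sample 1 was the highest and conduit sample 2 lay just above injury sample 3 (log2 fold change 2.02, SE 0.68, edgeR unadjusted p = 0.0238, adjusted p = 0.829; log2 difference within batch 2 2.21). Cxcl11 had the same order of libraries among the conduit ganglia at a lower level, at 1.69, 0.377 and 0.778 CPM in the conduit ganglia, against 0.273, 0.0473 and 0.289 CPM in the injury ganglia (log2 fold change 2.21, SE 0.79, edgeR unadjusted p = 0.0272, adjusted p = 0.856; log2 difference within batch 2 2.36). Without conduit sample 1 the log2 fold changes of Cxcl10 and Cxcl11 were 1.28 and 1.5. Cxcl11 passed the filter on low counts through the conduit group alone, where it was higher. With no filter its edgeR unadjusted p was 0.0202. The receptor Cxcr3 had 25, 7 and 5 counts in the conduit libraries and 4, 14 and 4 in the injury libraries and was too low to be tested. Markers of T and natural killer cells summed to 14.9 to 25.4 CPM in the conduit ganglia and 18.8 to 32.8 in the injury ganglia. Of the 11 markers measured, 4 had a higher mean in the conduit ganglia and 7 a lower one, and the groups overlapped for each. Cd3e, a chain of the T cell receptor complex and one of the lower markers, was at 0.169, 0.126 and 0.0251 CPM in the conduit ganglia, against 0.522, 0.402 and 0.0482 CPM in the injury ganglia.

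None of 22 listed genes of the interferon response passed edgeR's test at an adjusted p under 0.05, with a smallest adjusted p of 0.438, and DESeq2 called 7 of them. They summed to 2131, 1659 and 1733 CPM in the conduit ganglia and 564, 445 and 1083 CPM in the injury ganglia. Of the 22, 19 were higher in the conduit ganglia without overlap, against 5.37% of the 19517 genes with at least 10 counts, and all 22 had a higher mean there, as had 9690 of those genes. The list was chosen with earlier results of these data known, so these counts describe the 22 genes only. Injury sample 3 held the highest sum of the injury libraries and also the highest Cxcl10 and Cxcl11 of them, whereas Cxcl9 was highest in injury sample 1. Ifng, which encodes interferon gamma, had 1 count in conduit sample 1 and 0 in the other 5 libraries, where 3 counts would be 0.0710 to 0.0753 CPM. The part of the interferon response or of invading cells in the ligand levels was not tested.

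**Figure D3:**
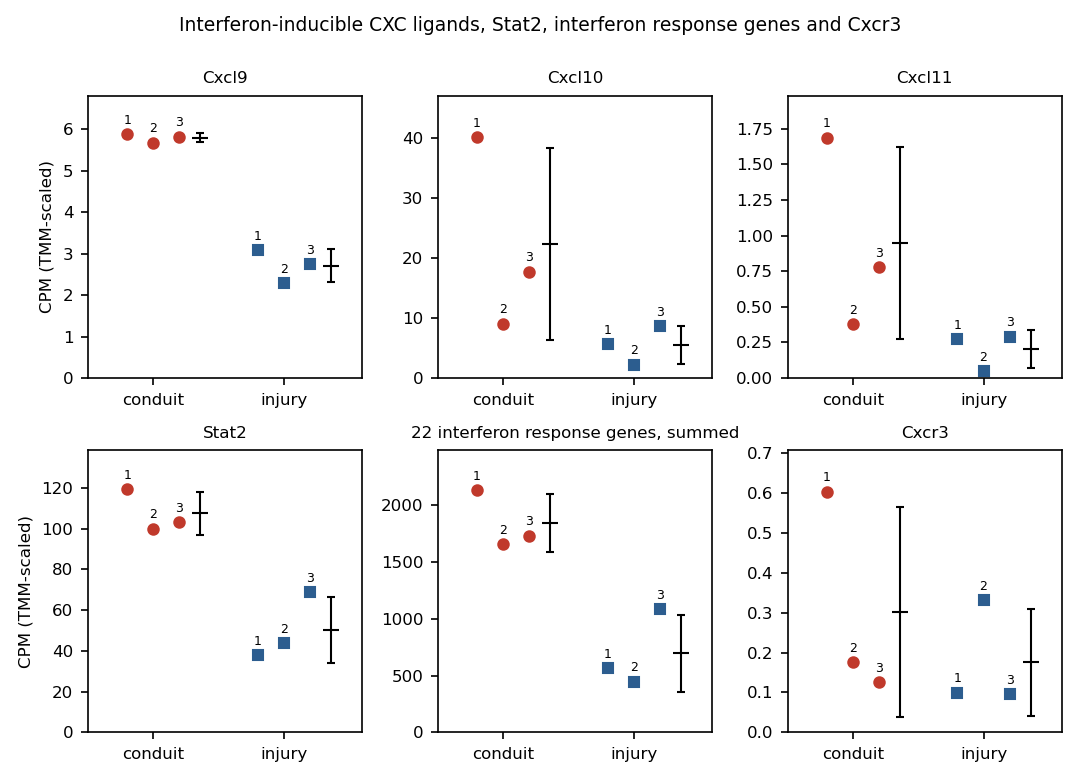
TMM-scaled CPM of Cxcl9, Cxcl10, Cxcl11, Stat2, the sum of 22 interferon response genes and Cxcr3 in each library, with sample numbers beside the points and mean ± SD (n = 3) to the right of each group. The groups do not overlap in any panel except Cxcr3, whose highest levels are in conduit sample 1 and injury sample 2.

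The 3 ligand genes are neighbours in the order Cxcl11, Cxcl10 and Cxcl9 on rat chromosome 14 in the RefSeq annotation of build GRCr8. Their promoters are shown because the 3 genes were higher together in the conduit ganglia. The 250 bases before each RefSeq start site (GRCr8, 5′ to 3′) are given with matches to 3 motifs in capitals, each searched on both strands. These were the core of the interferon-stimulated response element (GAAA, NN and GAAA, where N is any base), the gamma-activated site of interferon gamma responses (TTC, NNN and GAA) and an NF-kappaB-like sequence (GGGA, NN, T, N and CC).
Cxcl9, chr14:16006916-16007165, plus strand: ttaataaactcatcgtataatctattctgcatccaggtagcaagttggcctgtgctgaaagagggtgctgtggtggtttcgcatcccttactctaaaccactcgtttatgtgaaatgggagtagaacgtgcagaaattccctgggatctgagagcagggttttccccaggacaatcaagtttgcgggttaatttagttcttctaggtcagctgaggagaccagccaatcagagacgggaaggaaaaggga
Cxcl10, chr14:15988816-15989065, plus strand: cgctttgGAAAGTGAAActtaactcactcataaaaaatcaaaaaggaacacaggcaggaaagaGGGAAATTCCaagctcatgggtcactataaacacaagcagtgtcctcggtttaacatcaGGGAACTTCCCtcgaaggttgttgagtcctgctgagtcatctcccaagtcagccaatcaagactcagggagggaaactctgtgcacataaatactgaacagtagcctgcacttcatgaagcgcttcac
Cxcl11, chr14:15973478-15973727, plus strand: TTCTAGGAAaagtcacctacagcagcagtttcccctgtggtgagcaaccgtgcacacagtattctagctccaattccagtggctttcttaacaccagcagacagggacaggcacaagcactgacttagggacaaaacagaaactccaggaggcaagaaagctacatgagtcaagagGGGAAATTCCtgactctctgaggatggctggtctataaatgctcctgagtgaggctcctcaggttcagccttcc
Cxcl10 held 1 match to the interferon-stimulated response element core at -243 to -234 from the start site, and NF-kappaB-like matches at -187 to -178 and at -128 to -119, the last overlapping a match on the other strand. Cxcl11 held a gamma-activated site match at -250 to -242 and an NF-kappaB-like match at -74 to -65. Cxcl9 had no match in the 250 bases shown and a gamma-activated site match, TTCTCTGAA, at 33 to 41 after the start. Over 33469 RefSeq promoters of 300 bases, 3.92% held the response element core, 8.87% the gamma-activated site and 3.95% the NF-kappaB-like sequence. Among the 37 of the 48 genes with such a promoter sequence, the response element core was in 2, the gamma-activated site in 5 and the NF-kappaB-like sequence in 7. A match describes letters in this window and not a bound site.

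Among the other CXC, CX3C and XC ligands, Cx3cl1 and Cxcl17 were higher and Cxcl14 lower in every conduit library. Cx3cl1 encodes fractalkine, a membrane-tethered ligand made by neurons and endothelium. It was at 14.6, 10.8 and 13.0 CPM in the conduit ganglia, against 8.10, 6.36 and 8.12 CPM in the injury ganglia (log2 fold change 0.77, SE 0.17, edgeR unadjusted p = 0.00307, adjusted p = 0.572; log2 difference within batch 2 0.85). All 3 conduit libraries lay above all injury libraries, and the log2 fold change lay at 0.66 to 0.88 when 1 library was left out. DESeq2 gave it an adjusted p of 0.0166, the smallest over the settings tried, and the largest was 0.9999. Its receptor Cx3cr1, carried by macrophages and microglia, was at 6.73, 2.29 and 1.28 CPM in the conduit ganglia, against 2.46, 2.29 and 3.59 CPM in the injury ganglia, and the groups overlapped (log2 fold change 0.30, SE 0.59). Summed neuron markers were at 14054 to 19827 CPM in the conduit ganglia and 15363 to 16852 in the injury ganglia, and summed endothelial markers at 249.7 to 361 CPM in the conduit ganglia and 251 to 308 CPM in the injury ganglia. Their part in the Cx3cl1 level was not tested.

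Cxcl17, a mucosal protein whose place among the chemokines is debated, was scarce. It had 37, 21 and 21 counts in the conduit libraries and 4, 9 and 6 in the injury libraries, or 0.893, 0.527 and 0.527 CPM in the conduit ganglia, against 0.0994, 0.213 and 0.145 CPM in the injury ganglia (log2 fold change 2.07, SE 0.49, edgeR unadjusted p = 0.00401, adjusted p = 0.594; log2 difference within batch 2 2.29). The groups did not overlap, and its 98 counts in all were the fewest of the 9 genes at an unadjusted p under 0.05. Cxcl17 passed the filter on low counts through the conduit group alone, where it was higher. With no filter its edgeR unadjusted p was 0.00535. Cxcl14, a ligand of skin and other epithelia with no settled signalling receptor, was at 5.79, 4.34 and 4.34 CPM in the conduit ganglia, against 6.79, 8.28 and 6.12 CPM in the injury ganglia (log2 fold change -0.55, SE 0.21, edgeR unadjusted p = 0.0330, adjusted p = 0.891). Conduit sample 1 came close to injury sample 3, its partner in batch 2, where the log2 difference was -0.08.

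Cxcl16, a membrane-tethered ligand of Cxcr6, was at 18.6, 12.6 and 18.8 CPM in the conduit ganglia, against 18.7, 9.74 and 9.40 CPM in the injury ganglia. Injury sample 1 was as high as the conduit libraries 1 and 3, so the groups overlapped (log2 fold change 0.40, SE 0.30), and without injury sample 1 the log2 fold change was 0.81. Cxcr6 had 14, 4 and 2 counts in the conduit libraries and 4, 6 and 0 in the injury libraries. Cxcl13, which attracts B cells through Cxcr5, was at 8.04, 1.76 and 2.64 CPM in the conduit ganglia, against 0.721, 4.78 and 1.37 CPM in the injury ganglia, with conduit sample 1 and injury sample 2 highest. Cxcr5 itself was at 0.483, 0.728 and 0.352 CPM in the conduit ganglia, against 0.224, 0.378 and 0.193 CPM in the injury ganglia, and the groups overlapped between conduit sample 3 and injury sample 2. Summed B cell markers were at 7.05, 3.99 and 3.34 CPM in the conduit ganglia and 3.18, 31.6 and 15.2 CPM in the injury ganglia. Xcl1, a ligand of lymphocytes, and its receptor Xcr1 of cross-presenting dendritic cells had at most 12 and 11 counts in any library and were not tested.

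**Figure D4:**
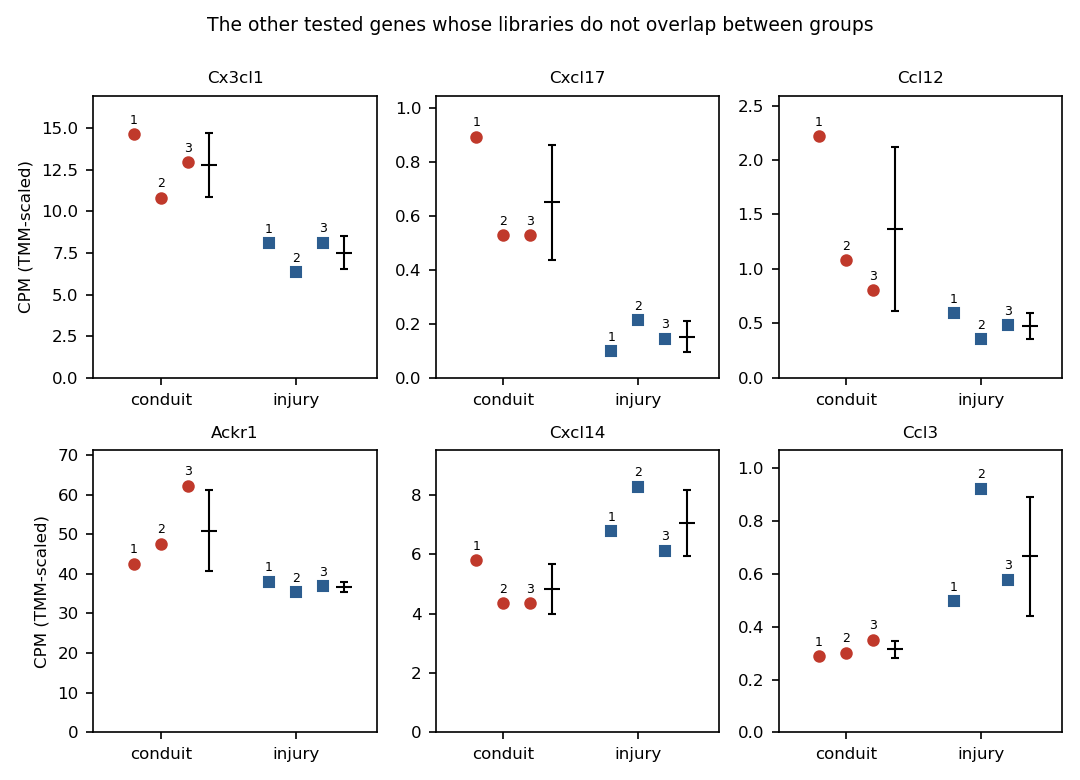
TMM-scaled CPM per library of the 6 other tested genes whose libraries did not overlap between groups, with sample numbers beside the points and mean ± SD (n = 3). Cx3cl1, Cxcl17, Ccl12 and Ackr1 are higher and Cxcl14 and Ccl3 lower in all 3 conduit libraries.

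Cxcl12 with its receptors Cxcr4 and Ackr3 is the axis that holds stem and immune cells in tissues, and Ackr3 removes Cxcl12 without G protein signalling. Cxcl12 had the most counts of the 48 genes, at 68.3, 66.7 and 43.1 CPM in the conduit ganglia, against 39.7, 87.2 and 58.1 CPM in the injury ganglia. All 3 conduit libraries lay inside the range of the injury libraries (log2 fold change -0.05, SE 0.31), and its log2 fold change lay at -0.28 to 0.28 when 1 library was left out, negative with all libraries and positive without conduit sample 3 or injury sample 2. Cxcr4 was at 19.3, 17.6 and 13.7 CPM in the conduit ganglia, against 18.3, 22.8 and 19.9 CPM in the injury ganglia (log2 fold change -0.27, SE 0.16), with conduit samples 2 and 3 lowest. Ackr3 was at 12.4, 13.0 and 8.51 CPM in the conduit ganglia, against 9.12, 10.8 and 9.62 CPM in the injury ganglia (log2 fold change 0.20, SE 0.19). The groups overlapped for all 3 genes, and differences of several times these SEs could go uncalled too. Cxcl9, with a log2 fold change of 1.10 and an SE of 0.20, had an edgeR adjusted p of 0.368. Markers of fibroblasts, which make Cxcl12, summed to 4904, 4289 and 2983 CPM in the conduit ganglia and 2407, 4559 and 3535 CPM in the injury ganglia, with the lowest sums in the libraries lowest in Cxcl12 within each group. Their part in the Cxcl12 level was not tested.

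Of the CC ligands that attract monocytes Ccl12 separated the groups and Ccl2 and Ccl7 did not. Ccl2 was at 8.74, 6.65 and 9.89 CPM in the conduit ganglia, against 8.40, 7.47 and 8.65 CPM in the injury ganglia (log2 fold change 0.04, SE 0.18), and the conduit libraries spanned the injury libraries. Ccl7, which shares its receptor Ccr2, was at 3.40, 1.81 and 1.81 CPM in the conduit ganglia, against 1.79, 2.44 and 2.89 CPM in the injury ganglia. Ccl12, a further ligand of Ccr2 known in mice, was at 2.22, 1.08 and 0.803 CPM in the conduit ganglia, against 0.597, 0.355 and 0.482 CPM in the injury ganglia (log2 fold change 1.51, SE 0.49, edgeR unadjusted p = 0.0180, adjusted p = 0.792; log2 difference within batch 2 2.10). Every conduit library exceeded every injury library in Ccl12, and conduit sample 1 alone exceeded 2 CPM. Without conduit sample 1 the log2 fold change of Ccl12 was 0.98. In the RefSeq annotation Ccl2, Ccl7, Ccl11 and Ccl12 are consecutive genes. Ccl11, an attractant of eosinophils, was at 2.27, 3.82 and 0.577 CPM in the conduit ganglia, against 1.19, 4.21 and 2.27 CPM in the injury ganglia, and the groups overlapped. No source used here says how reads matching more than 1 of these related genes were counted.

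Ccl3, a macrophage-derived ligand of Ccr1, was scarce and lower in the conduit ganglia. It had 12, 12 and 14 counts in the conduit libraries and 20, 39 and 24 in the injury libraries, or 0.290, 0.301 and 0.352 CPM in the conduit ganglia, against 0.497, 0.922 and 0.578 CPM in the injury ganglia (log2 fold change -1.08, SE 0.41, edgeR unadjusted p = 0.0348, adjusted p = 0.897; log2 difference within batch 2 -0.89). Injury sample 2, the library highest in neutrophil genes, held the highest level, and without it the log2 fold change was -0.77. Its neighbour Ccl4, another macrophage-derived ligand, was at 0.820, 0.452 and 0.276 CPM in the conduit ganglia, against 0.224, 0.615 and 0.506 CPM in the injury ganglia, and its groups overlapped. Ccl5, an attractant of T cells and monocytes, was at 2.32, 1.23 and 2.49 CPM in the conduit ganglia, against 1.74, 1.32 and 1.88 CPM in the injury ganglia, with conduit samples 1 and 3 highest. Ccl6, a ligand of Ccr1 in mice, was at 6.13, 5.27 and 4.17 CPM in the conduit ganglia, against 6.02, 9.34 and 4.10 CPM in the injury ganglia (log2 fold change -0.32, SE 0.32), with injury sample 2 highest. Ccl24, an eotaxin, was at 1.86, 0.929 and 0.527 CPM in the conduit ganglia, against 1.32, 1.44 and 0.530 CPM in the injury ganglia. Ccl9 had 3, 5 and 2 counts in the conduit libraries and 1, 1 and 13 in the injury libraries and was not tested.

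Ligands of lymphoid tissue and barriers did not separate the groups. Ccl27, the skin ligand of Ccr10, had the highest mean FPKM of them and was at 5.84, 5.78 and 7.68 CPM in the conduit ganglia, against 7.31, 5.37 and 5.90 CPM in the injury ganglia (log2 fold change 0.05, SE 0.20). Ccr10 was at 1.13, 2.36 and 1.96 CPM in the conduit ganglia, against 1.72, 1.89 and 1.25 CPM in the injury ganglia (log2 fold change 0.17, SE 0.36). Ccl19 and Ccl21, which guide lymphocytes and dendritic cells through Ccr7, varied widely within the conduit group. Ccl19 was at 2.22, 1.23 and 0.753 CPM in the conduit ganglia, against 2.16, 1.23 and 1.45 CPM in the injury ganglia (log2 fold change -0.20, SE 0.46). Ccl21 was at 4.71, 0.779 and 0.301 CPM in the conduit ganglia, against 0.671, 1.61 and 1.71 CPM in the injury ganglia, and for both genes conduit sample 1 was the highest library. Ccr7 had 7, 1 and 2 counts in the conduit libraries and 2, 17 and 2 in the injury libraries. Ccl1 and Ccl22 had at most 4 counts in any library.

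Receptors of monocytes and macrophages varied more between the libraries of a group than between the groups. Ccr2, the receptor of inflammatory monocytes, was at 3.52, 1.10 and 0.728 CPM in the conduit ganglia, against 0.398, 4.87 and 1.71 CPM in the injury ganglia (log2 fold change -0.38, SE 0.93). Ccr1, a receptor of several inflammatory CC ligands, was at 2.53, 0.628 and 0.527 CPM in the conduit ganglia, against 0.920, 2.65 and 1.35 CPM in the injury ganglia (log2 fold change -0.41, SE 0.71). Conduit sample 1 was the highest conduit library for Ccr1, Ccr2 and Cx3cr1, and injury sample 2 was the highest injury library for Ccr1 and Ccr2. The 14 macrophage markers summed to 298, 137 and 128 CPM in the conduit ganglia and 119.7, 197 and 150.5 CPM in the injury ganglia, with the same libraries highest in each group. None of the 14 was at 0. Of the 14, 8 had a higher mean in the conduit ganglia and 6 a lower one. The groups did not overlap for 2, both higher there, against 5.37% of the 19517 genes with at least 10 counts. Without conduit sample 1 the log2 fold change of Cx3cr1 was -0.64, against 0.30 with it. Without injury sample 2 that of Ccr2 was 0.76, against -0.38 with it. The part of macrophage number in these levels was not tested.

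Ligands and receptors of neutrophils were scarce. Cxcr2, the neutrophil receptor, had 1, 0 and 1 counts in the conduit libraries and 1, 78 and 1 in the injury libraries, so that a single library held 78 of its 82 counts. Neutrophil markers summed to 12.9, 35.5 and 15.5 CPM in the conduit ganglia and 59.6, 700.4 and 152 CPM in the injury ganglia, highest in the same library, with Ltf alone of the 11 at 0. Cxcl1, a ligand of Cxcr2, was at 0.338, 0.527 and 0.0753 CPM in the conduit ganglia, against 0.646, 0.710 and 0.289 CPM in the injury ganglia (log2 fold change -0.80, SE 0.70). Cxcl2, Cxcl3 and Cxcl6, further ligands of this receptor, had at most 14 counts in any library. Cxcl1 and Cxcl6 were highest in injury sample 2, the library with most Cxcr2, Cxcl3 in injury sample 1 and Cxcl2 in conduit sample 3. The part of neutrophil number in these levels was not tested.

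**Figure D5:**
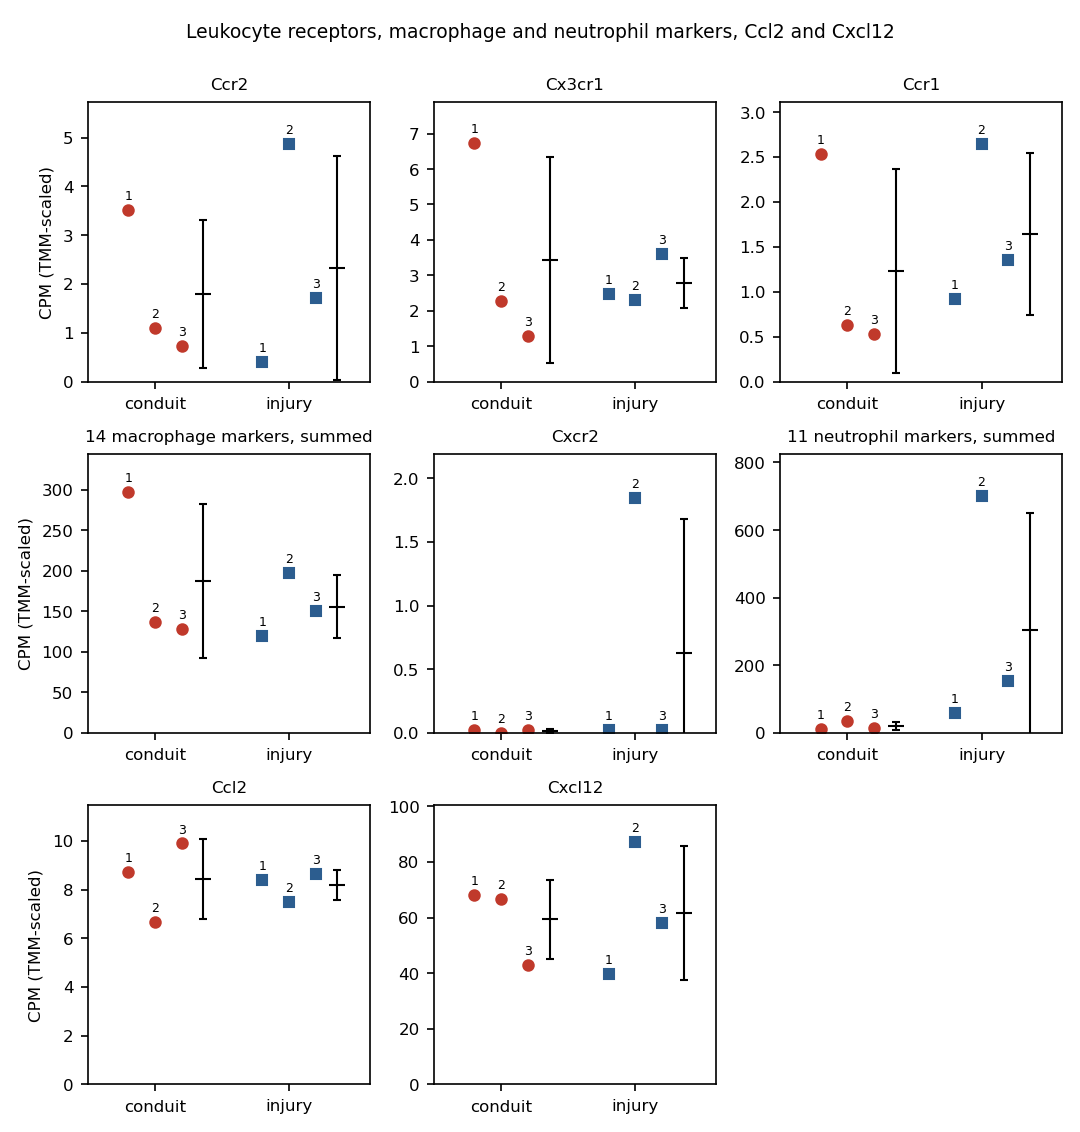
TMM-scaled CPM per library of Ccr2, Cx3cr1, Ccr1, summed macrophage markers, Cxcr2, summed neutrophil markers, Ccl2 and Cxcl12, with sample numbers beside the points and mean ± SD (n = 3; bars stop at 0). Conduit sample 1 leads its group in the macrophage panels, injury sample 2 alone is high in Cxcr2, and Ccl2 lies between 6.65 and 9.89 CPM in all 6.

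Atypical receptors bind chemokines without classical signalling and take them up or carry them across vessels. Ackr1, which in humans is also the Duffy antigen of red cells, was at 42.6, 47.6 and 62.2 CPM in the conduit ganglia, against 38.0, 35.3 and 36.8 CPM in the injury ganglia (log2 fold change 0.47, SE 0.15, edgeR unadjusted p = 0.0152, adjusted p = 0.754; log2 difference within batch 2 0.21). The 3 injury libraries were close together and conduit sample 3 was the highest, without which the log2 fold change was 0.30. Summed erythroid genes went the other way, at 1273, 511 and 563 CPM in the conduit ganglia and 4814, 5301 and 4445 CPM in the injury ganglia. The 7 venule markers, Ackr1 included, summed to 209, 200.1 and 187 CPM in the conduit ganglia and 167, 189 and 166 CPM in the injury ganglia. Of the 7, 4 had a higher mean in the conduit ganglia (Ackr1, Sele, Nr2f2 and Ephb4) and 3 a lower one (Selp, Vcam1 and Lrg1), and Ackr1 alone did not overlap. Sele, an endothelial adhesion molecule, was at 1.13, 1.08 and 0.251 CPM in the conduit ganglia, against 0.199, 0.851 and 0.386 CPM in the injury ganglia. Selp, another of these, was at 1.83, 1.96 and 1.73 CPM in the conduit ganglia, against 1.04, 4.59 and 1.90 CPM in the injury ganglia. Their part and that of red cells in the Ackr1 level were not tested. Ackr4, which removes Ccl19 and Ccl21, was at 1.86, 0.578 and 0.226 CPM in the conduit ganglia, against 0.721, 1.92 and 1.13 CPM in the injury ganglia (log2 fold change -0.50, SE 0.76). Ackr2, a scavenger of inflammatory CC ligands, was at 0.169, 0.578 and 0.552 CPM in the conduit ganglia, against 0.249, 0.402 and 0.458 CPM in the injury ganglia (log2 fold change 0.22, SE 0.57). Ccrl2, which binds chemerin in mice, had 62, 30 and 14 counts in the conduit libraries and 28, 37 and 43 in the injury libraries, with conduit sample 1 highest and conduit sample 3 lowest.

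Together the 48 genes summed to 308, 232 and 228 CPM in the conduit ganglia, against 191, 249 and 208 CPM in the injury ganglia, and the groups overlapped. Conduit sample 1 was the highest of the 6 libraries for 19 of the 48 genes (39.6%), and for 19.0% of the 19517 genes with at least 10 counts. Injury sample 2 was the highest for 14 of the 48 (29.2%), and for 20.0% of those genes. Conduit sample 3 led for 6, among them Ackr1 and Ccl2, and injury sample 1 for 2, Cxcl3 and Ccl1. This ordering was noticed in the data and describes these libraries only.

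Downstream of the receptors, 50 genes of chemokine signalling (G proteins, receptor kinases, arrestins, RGS proteins, phosphoinositide 3-kinases, Rac activators and integrins) were measured and tested. edgeR and DESeq2 each called 0 of them at an adjusted p under 0.05. At an unadjusted p under 0.05 stood 0 higher, against 2.99% of all tested genes, and 2 lower, against 2.36%, and the median log2 fold change was -0.09, against 0.00 for all tested genes. Rgs19, which shortens Gi signalling, was at 12.3, 10.999 and 14.0 CPM in the conduit ganglia, against 18.5, 17.6 and 15.9 CPM in the injury ganglia (log2 fold change -0.48, SE 0.13, edgeR unadjusted p = 0.00831, adjusted p = 0.666). Plcb2, a phospholipase of blood cells, was at 0.845, 0.703 and 0.352 CPM in the conduit ganglia, against 0.721, 5.35 and 1.57 CPM in the injury ganglia, with injury sample 2 highest (log2 fold change -2.0, SE 0.77, edgeR unadjusted p = 0.0360, adjusted p = 0.897). Gng2, a G protein gamma subunit, was at 254, 248.8 and 269.7 CPM in the conduit ganglia, against 228, 217 and 235 CPM in the injury ganglia (log2 fold change 0.18, SE 0.08, edgeR unadjusted p = 0.0542, adjusted p = 0.943). Of 18 listed inducers of chemokines 14 were tested, with 3 higher at an unadjusted p under 0.05, against 2.99% of all tested genes, among them Stat2 and Irf9. edgeR called 0 of the 14 at an adjusted p under 0.05 and DESeq2 called 3. Stat2, a transcription factor of the interferon response, was at 119, 100.03 and 103 CPM in the conduit ganglia, against 38.0, 43.9 and 68.7 CPM in the injury ganglia (log2 fold change 1.10, SE 0.22, edgeR unadjusted p = 0.00175, adjusted p = 0.505). Irf9, which binds interferon-stimulated response elements together with STAT2, was at 85.1, 77.2 and 73.7 CPM in the conduit ganglia, against 27.2, 27.5 and 59.0 CPM in the injury ganglia (log2 fold change 1.05, SE 0.31, edgeR unadjusted p = 0.0117, adjusted p = 0.744). Tnf and Il1b, inflammatory cytokines, overlapped between the groups, and Il17a was listed at 0 in every library. Tnf was at 0.362, 0.151 and 0.0502 CPM in the conduit ganglia, against 0.0994, 0.378 and 0.313 CPM in the injury ganglia. Il1b was at 1.91, 1.28 and 0.326 CPM in the conduit ganglia, against 1.64, 2.34 and 0.651 CPM in the injury ganglia.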

How the data were processed

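Purified mRNA of 6 rat trigeminal ganglion samples was sequenced in paired reads, per the labels' protocols. HISAT2, HTSeq, fastp, SAMtools, DESeq2 and the build mRatBN7.2 are named in the submitters' processing notes, and no source used here gives versions, annotation or strand. The counts deposited by the authors are whole numbers per gene symbol, with no scaling. The FPKM values deposited by the authors rest on the same counts: for 15973 of 15973 genes checked, both gave the same gene length within 1%.

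Groups came from the labels, and the comparison was conduit against injury. Genes were tested in R 4.3.3 with edgeR 4.0.16 (filterByExpr, TMM scaling, robust quasi-likelihood F test, no covariate, Benjamini-Hochberg adjustment over 16478 genes, threshold 0.05). Alternatives used DESeq2 1.42.0, limma 3.58.1, other scalings and filters, a block, batch and left-out libraries. CPM are TMM-scaled; log2 differences within batch 2 add a prior count of 2. SE is the log2 fold change over the root of F. The libraries held 40172473 to 41903629 counts, and 3 counts in a library are taken as the floor.

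Members and gene lists were chosen with earlier results of these data known. Fold changes are given for Cxcl9, Cxcl10, Cxcl12, Ccl2, Cx3cr1 and Ackr1, members at an unadjusted p under 0.05 or without overlap, the 6 members of highest FPKM, the 2 highest per role, receptors of these ligands, and genes among the 3 of smallest p in the signalling list and in the inducer list. Other genes are given by level only and were chosen after their values were seen. All 48 symbols matched RefSeq (GRCr8), used for names, gene order and promoters. Statistics were tested on simulated data. A few genes are left unreported here.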

Additional observations from a re-analysis of the deposited data

How the results depend on the processing

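Fold changes kept their direction under all settings tried for Cxcl9, Cxcl10, Cxcl11, Cx3cl1, Cxcl17, Ccl12, Cxcl14, Ccl3, Ackr1, Ackr3 and Cxcr4 wherever they were tested. Their size did not always hold. With batch as a term the log2 fold changes of Cxcl14, Cxcr4 and Ackr1 were -0.08, -0.04 and 0.21, against -0.55, -0.27 and 0.47 without it. Those of Cxcl9 and Ccl3 were then 1.10 and -0.99. Those of Cxcl10, Cxcl11, Cx3cl1, Cxcl17 and Ccl12 lay further from 0, at 2.21, 2.53, 0.85, 2.60 and 2.20. No setting except DESeq2 called any of the 48 genes, and DESeq2 called 2, Cxcl9 (log2 fold change 1.10) and Cx3cl1 (0.77). With an unadjusted p under 0.05 there were 9 genes in the fit reported above. There were 5 when only genes with at least 1 CPM in 3 libraries were tested, 3 with batch as a term, and 4 without injury samples 2 and 3, a setting chosen after seeing the data; with 1 library left out the count ranged from 5 (without injury sample 2) to 8. Over all genes edgeR called 1, and 6 with no filter, 210 with DESeq2, 9 and 3 with limma on log2(FPKM + 1) and log2(FPKM + 0.1), 0 with the replicate block, 0 with batch as a term, 0 to 38 with 1 library left out, 23 without injury samples 2 and 3, and 13 without conduit sample 2 and injury sample 1. The signalling list had 0 called throughout. With the replicate number as a block, 7 chemokine genes had an unadjusted p under 0.05, all higher, and 0 were called; Cxcl9 had a log2 fold change of 1.11 and Cxcl10 1.96. Same-numbered samples had correlations of -0.42, 0.06 and -0.07 in their deviations from the group means, so the numbers were not read as pairs.

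Directions turned for the genes below, several of them near 0 or led by 1 library, and the cause was not tested. Cxcl1 was at -0.80 with all libraries and at -1.39 to -0.34 with 1 library left out. Batch 2 alone informs the fit with batch as a term. With batch as a term the log2 fold changes were 0.23 for Cxcl12, 0.22 for Cxcl1, 0.58 for Ccl6, -0.016 for Ccl27, 0.62 for Ccl19, -0.14 for Ccr10, 1.04 for Ccr2, -1.42 for Ackr2, 0.91 for Ccr1 and 0.71 for Ackr4. On log2(FPKM + 1) they were -0.024 for Ccl2 and -0.00066 for Ccl27, and on log2(FPKM + 0.1) -0.027 for Ccl2, -0.051 for Cx3cr1 and -0.0012 for Ccl27. Without injury samples 2 and 3 they were 0.58 for Cxcl12, -0.17 for Cxcl16, -0.19 for Ccl27, 2.15 for Ccr2, 0.42 for Ccr1 and 0.30 for Ackr4. Without conduit sample 2 and injury sample 1 they were 0.16 for Ccl19, -0.012 for Ccr10 and -0.24 for Ackr2, while Cxcl12 at -0.37 and Ccl27 at 0.27 kept their direction. With 1 library left out the ranges that crossed 0 were -0.28 to 0.28 for Cxcl12, -0.087 to 0.19 for Ccl2, -0.64 to 0.70 for Cx3cr1, -0.57 to 0.037 for Ccl6, -0.094 to 0.20 for Ccl27, -0.70 to 0.10 for Ccl19, -0.060 to 0.41 for Ccr10, -1.34 to 0.76 for Ccr2, -0.028 to 0.61 for Ackr2 and -1.50 to 0.12 for Ccr1. In depth, 3 counts in a library are 0.0710 to 0.0753 CPM, and 14 of the 48 genes were too low to be tested, 7 of 29 ligands and 7 of 19 receptors.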
